A study of Mus musculus with 6 samples.

Results

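Intestinal iron handling was followed through 8 genes chosen by name for their place in the pathway, out of 23284 genes in the count files. They were Slc11a2, Cybrd1 and Tfrc for uptake, Slc40a1 and Heph for export, Fth1 and Ftl1 for storage, and Epas1, which encodes the oxygen-sensing transcription factor HIF-2alpha. Intestine taken as jejunum and ileum together was sequenced from SHP-KO mice (3 libraries) and from wild-type (WT) mice (3 libraries). SHP-KO mice lack SHP, the small heterodimer partner, a repressor of transcription from the nuclear receptor family, encoded by Nr0b2. All mice were males of 8 weeks that had been without food overnight and were then given food for 6 h. The labels give neither the design of the SHP allele, nor the share of each segment in a sample, nor whether each library came from a separate animal. Any p-value here thus reflects library-to-library spread alone, possibly of technical origin.

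Dietary iron reaches the enterocyte as ferric iron and must be reduced at the brush border before it can be carried into the cell. Within the cell it is either stored in ferritin, a shell built of heavy and light chains, or released to the blood through ferroportin, the product of Slc40a1. Absorption is strongest in the duodenum and declines along the small intestine. In iron-poor cells, iron regulatory proteins bind hairpins called iron-responsive elements. Binding near the 5′ end of an mRNA blocks its translation, whereas binding in the 3′ untranslated region (UTR) of Tfrc mRNA protects it from decay. HIF-2alpha, in turn, raises transcription of the uptake and export genes in the duodenum when iron or oxygen is short.

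The hairpin letters of the iron-responsive element were searched in the GENCODE M21 transcripts, and the matches are shown because these hairpins mark the iron genes best known to be bound by iron regulatory proteins. The motif, on the mRNA strand, was a C, any 5 bases, the loop CAGTGN and 5 bases more, in which all 5 bases before the loop can pair with those after it (A with T, G with C, or G with T). It was found in the UTRs of 4 of the 8 genes and in those of 175 of 22500 genes with a coding transcript (0.778%), windows that differ in length between genes. Each match is printed 5′ to 3′ as 29 bases in T letters, with the loop in capitals.
Fth1, 5′ UTR: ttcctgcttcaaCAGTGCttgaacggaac
Ftl1, 5′ UTR: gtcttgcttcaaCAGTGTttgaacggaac
Slc40a1, 5′ UTR: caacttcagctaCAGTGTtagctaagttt
Tfrc, 3′ UTR, site 1: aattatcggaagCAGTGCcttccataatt
Tfrc, 3′ UTR, site 2: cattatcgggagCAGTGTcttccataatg
Tfrc, 3′ UTR, site 3: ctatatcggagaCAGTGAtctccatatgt
Tfrc, 3′ UTR, site 4: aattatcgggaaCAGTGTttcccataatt
In GRCm38 these lie at chr19:9982732-9982760 on the plus strand for Fth1, at chr7:45459779-45459807 on the minus strand for Ftl1 and at chr1:45925465-45925493 on the minus strand for Slc40a1. The 4 Tfrc matches lie on the plus strand at chr16:32631219-32631247, chr16:32631598-32631626, chr16:32631663-32631691 and chr16:32631710-32631738. The ferritin heavy and light chain sites share the same stem letters on each side of the loop. No match to these letters was found in the annotated transcripts of Slc11a2, Cybrd1, Heph or Epas1. Hairpins with an unpaired base in the stem or with other spacing were not searched. The lack of a match therefore does not show that these genes hold no iron-responsive element.

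Of the 8 genes, 5 were lower in SHP-KO intestine (Slc40a1, Epas1, Tfrc, Heph and Fth1), 2 were higher (Cybrd1 and Ftl1), and Slc11a2 did not pass the test. The change in Slc40a1 was by far the largest, about 11-fold on the fitted scale, while the abundant ferritin chains and Heph moved by less than 1.5-fold. Genes were called by edgeR's quasi-likelihood test at a Benjamini-Hochberg adjusted p under 0.05 over all 12106 tested genes, and all 8 iron genes passed the filter on low counts. By that rule 70.6% of all tested genes were called, 35.2% higher and 35.4% lower in SHP-KO, and the 7 of 8 iron genes called are to be read against that share. Scaling instead to the geometric mean of 10 epithelial markers (epithelial scaling) gave 5959 genes higher and 2759 lower. The groups' levels did not overlap for any of the 8 iron genes, and they did not overlap for 72.0% of all tested genes. The median absolute log2 fold change was 0.48 over the 8 genes and 0.42 over all tested genes. Levels are given as CPM, read counts relative to library size, scaled by TMM, edgeR's correction for library composition, and, between genes, as TPM, which also divides by gene length.

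**Figure D1:**
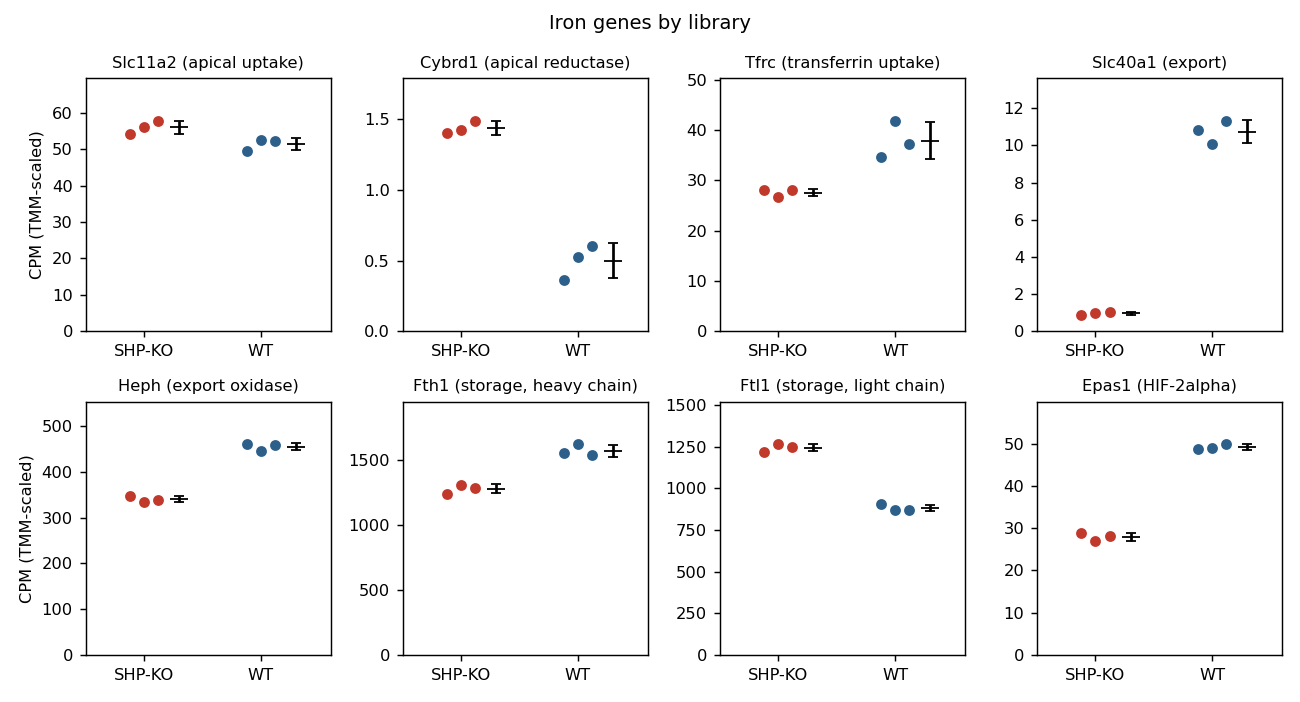
Level of each iron gene in CPM (vertical axis, linear from 0) in the 3 SHP-KO and 3 WT libraries, 1 point per library, with mean and SD beside them. As a ratio of the groups the widest gap is in Slc40a1, at about 1 CPM in SHP-KO and 10 to 11 CPM in WT, and the narrowest in Slc11a2, at 54.1 to 57.9 CPM in SHP-KO and 49.4 to 52.6 CPM in WT.

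The libraries held between 7956528 and 9289543 counts in SHP-KO and between 11265437 and 13511800 in WT. Nr0b2, the gene that encodes SHP, had 1 count over the SHP-KO libraries and 68 over the WT libraries. Markers of other cells and segments differed widely between the same libraries. All 8 proximal small intestine markers were higher in SHP-KO, with a summed level of 27172 to 27673 CPM in SHP-KO and 5108 to 5201 CPM in WT. Of 9 ileum markers 7 were lower and 2, Slc10a2 and Pyy, higher, with 2390 to 2438 CPM in SHP-KO and 16792 to 17204 CPM in WT. Summed epithelial markers were at 26377 to 26423 CPM in SHP-KO and 27554 to 27936 CPM in WT, with 6 of 10 lower and 3 higher. B cell markers were lower in 8 of 8, at 1.15 to 1.49 CPM in SHP-KO and 82.3 to 84.4 CPM in WT, and adipocyte markers higher in 4 of 4 tested, at a summed 156 to 168 CPM in SHP-KO and 117 to 120 CPM in WT. Cidec made up most of that sum at 1.19-fold higher, whereas Fabp4, Car3 and Cfd were 7.56-, 25.8- and 10.04-fold higher. A difference in the share of jejunum and ileum between the samples cannot be told apart from SHP loss for any of these genes.

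Slc40a1 encodes ferroportin, the only known cellular iron exporter in mammals, which sits in the basolateral membrane of enterocytes and in macrophages. It lies on chromosome 1 from 45964915 to 45982439 (mm9, minus strand) in 8 exon intervals. SHP-KO replicates 1 to 3 held 7, 9 and 9 counts, or 0.891, 0.984 and 1.03 CPM, and WT replicates 1 to 3 held 148, 115 and 150 counts, or 10.8, 10.1 and 11.3 CPM. Every SHP-KO library was thus far below every WT library, and the libraries of a genotype lay close together. With 7 to 9 counts per SHP-KO library, closeness there says little of the spread between replicates. On the log2 scale the difference was -3.45 (SE 0.22, 95% interval -3.89 to -3.02, adjusted p 6.5e-26, edgeR), so that 0.091 of the WT level was left. Slc40a1 held rank 82 from the lowest log2 fold change among the 12106 tested genes. In such tissue samples, fewer cells that express a gene and less RNA per cell cannot be told apart. Macrophage markers went both ways in the same libraries: of 6 tested, Itgam and Cd68 were higher, Lyz2, Mrc1 and Cd14 lower, and Csf1r was at 7.75 ± 0.95 CPM in SHP-KO and 7.99 ± 0.19 CPM in WT (SD, n = 3 each). The summed level of the 9 markers in the files was 43.9 to 49.7 CPM in SHP-KO and 101 to 103 CPM in WT. Lyz2 alone averaged 12.3 CPM in SHP-KO and 72.4 CPM in WT. The part of these cells in the Slc40a1 result was not tested.

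Heph encodes hephaestin, the membrane copper oxidase that turns exported ferrous iron into the ferric form taken up by transferrin. The gene spans 93650775 to 93769823 on the X chromosome (mm9, plus strand). Its level was 349, 335 and 339 CPM in SHP-KO replicates 1 to 3 and 461, 446 and 459 CPM in WT replicates 1 to 3. The groups were well apart, but the difference was small beside that of Slc40a1, at log2 -0.42 (SE 0.029, adjusted p 5.0e-23, edgeR), or 1.34-fold higher in WT. This call was lost when a coefficient of variation (CV) of 0.2 was assumed in place of the estimated spread (adjusted p 0.17, edgeR exact test). Atp7a, which loads copper onto such oxidases, was lower too (log2 -0.44, SE 0.085), a call lost with the same CV of 0.2 (adjusted p 0.17, edgeR exact test).

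Slc11a2 encodes DMT1, the proton-coupled transporter that carries ferrous iron across the brush border. It spans 100218331 to 100253486 on chromosome 15 (mm9, minus strand), and the counts do not separate its isoforms with and without an iron-responsive element. SHP-KO replicates 1 to 3 were at 54.1, 56.0 and 57.9 CPM and WT replicates 1 to 3 at 49.4, 52.6 and 52.2 CPM. The SHP-KO libraries were the higher ones by a narrow margin, and the log2 fold change of 0.12 (SE 0.059) did not pass (adjusted p 0.054, edgeR). Its 95% interval ran from 0.0067 to 0.24. It passed without SHP-KO replicate 1 (log2 0.14, adjusted p 0.041) and in limma-voom (adjusted p 0.044), and with epithelial scaling at log2 0.34.

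Cybrd1 encodes duodenal cytochrome b, a brush border reductase that prepares ferric iron for DMT1. The gene lies on chromosome 2 from 70956111 to 70980983 (mm9, plus strand) in 4 exon intervals. It was scarcely detected, with 11, 13 and 13 counts in SHP-KO replicates 1 to 3 and 5, 6 and 8 counts in WT replicates 1 to 3. At 1.44 ± 0.047 CPM in SHP-KO and 0.50 ± 0.12 CPM in WT (SD, n = 3 each), the groups stood apart although every library held few reads. The log2 fold change was 1.51 (SE 0.40, 95% interval 0.71 to 2.32, adjusted p 0.00060, edgeR). Leaving out single libraries moved the value between 1.31 and 1.68.

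Tfrc encodes the transferrin receptor, through which cells, dividing crypt cells above all, take up transferrin-bound iron from the blood. It spans 32608982 to 32632880 on chromosome 16 (mm9, plus strand) with 19 exons. Its level was 28.0, 26.7 and 28.1 CPM in SHP-KO replicates 1 to 3 and 34.7, 41.9 and 37.2 CPM in WT replicates 1 to 3. All SHP-KO libraries were lower than all WT libraries, and the WT libraries spread more. The log2 fold change was -0.46 (SE 0.075, adjusted p 9.0e-08, edgeR), a call that edgeR's exact test with that CV of 0.2 did not make (adjusted p 0.14). Of 10 markers of dividing cells 9 were lower in the same libraries and Mcm2 was higher, with a summed level of 87.9 to 98.4 CPM in SHP-KO and 217 to 219 CPM in WT. Erythroid cells also carry much transferrin receptor. The 4 globin genes listed as their markers share exons in pairs in the annotation, and reads on shared exons were not counted, so their 0 counts say nothing of these cells. Of the other 4 erythroid markers Slc4a1 had no count, and Alas2 had 2 counts over SHP-KO libraries and 4 over WT libraries. The part of dividing and of erythroid cells in the Tfrc result was not tested.

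**Figure D2:**
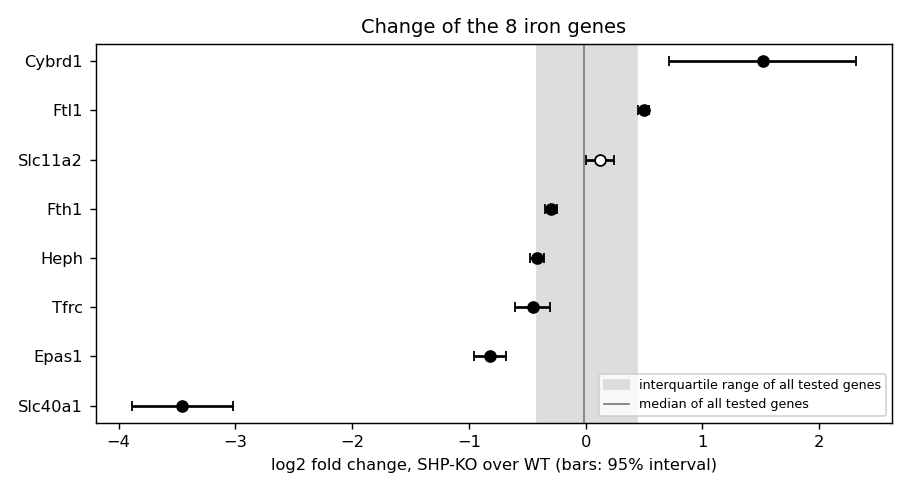
Log2 fold change of the 8 iron genes, SHP-KO over WT (horizontal axis), with 95% intervals; filled points passed an adjusted p under 0.05 and the open point did not. The intervals of Slc40a1 at -3.45, Epas1 at -0.82, Cybrd1 at 1.51 and Ftl1 at 0.50 lie outside the grey band, the interquartile range of all tested genes (log2 -0.42 to 0.44).

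The ferritin chains moved in opposite directions. Fth1, the heavy chain with the ferroxidase centre that oxidises iron as it enters the shell, had 1240, 1308 and 1289 CPM in SHP-KO replicates 1 to 3 and 1555, 1622 and 1538 CPM in WT replicates 1 to 3. Ftl1, the light chain that helps form the mineral core, had 1220, 1264 and 1245 CPM in SHP-KO replicates 1 to 3 and 904, 871 and 869 CPM in WT replicates 1 to 3. The heavy chain was lower and the light chain higher in every SHP-KO library than in any WT library. The difference was log2 -0.30 for Fth1 (SE 0.025, adjusted p 6.1e-19) and log2 0.50 for Ftl1 (SE 0.025, adjusted p 5.0e-32), both in edgeR's quasi-likelihood test. Neither passed edgeR's exact test with a CV of 0.2, at adjusted p 0.36 for Fth1 and 0.094 for Ftl1. Fth1 lies at 10057193 to 10059582 on chromosome 19 (plus strand) and Ftl1 at 52713314 to 52715256 on chromosome 7 (minus strand), both in mm9 with 4 exons. Ferritin genes have many processed copies in the genome, and reads with several alignments were not counted, so the absolute levels of both chains are uncertain.

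Set side by side per transcript length, as TPM, the chains together differed little between the genotypes. Their summed level was 4710 ± 103.8 TPM in SHP-KO and 4736 ± 94.8 TPM in WT (SD, n = 3 each), and the ranges overlapped, at 4603 to 4810 TPM in SHP-KO and 4641 to 4831 TPM in WT. Within that sum Fth1 was at 2522 ± 66.4 TPM in SHP-KO and 3156 ± 95.8 TPM in WT, and Ftl1 at 2188 ± 38.0 TPM in SHP-KO and 1580 ± 33.5 TPM in WT. The heavy to light ratio was thus 1.14, 1.16 and 1.16 in SHP-KO replicates 1 to 3 and 1.93, 2.09 and 1.98 in WT replicates 1 to 3. This ratio is free of the scaling between libraries. Every SHP-KO value was below every WT value (exact two-sided permutation test p = 0.10, the smallest that 3 against 3 libraries allow). The summed level, in contrast, depends on the scaling, TPM being relative to each library's total. With epithelial scaling Fth1 was at log2 -0.08 and Ftl1 at log2 0.71, and the sum was not tested with that scaling.

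**Figure D3:**
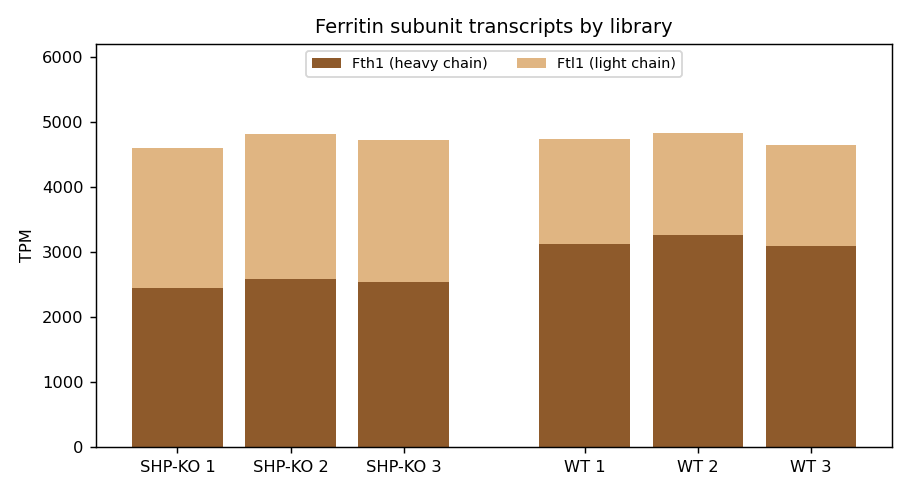
Fth1 (dark, lower bar) and Ftl1 (light, upper bar) in TPM, stacked for each SHP-KO and WT library. The bar heights lie between 4603 and 4831 TPM in all 6 libraries, while the boundary between the chains is lower in SHP-KO.

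Genes of iron sensing and ferritin turnover went both ways. Of 9 tested 5 were lower (55.6%, beside 35.4% of all tested genes) and 3 higher (33.3%, beside 35.2%), and the list median was log2 -0.45 beside -0.01 over all tested genes. Ncoa4, the receptor that delivers ferritin to autophagy, was at 14.4 ± 1.9 CPM in SHP-KO and 25.3 ± 1.7 CPM in WT (log2 -0.82). Ireb2, which encodes iron regulatory protein 2, and Fbxl5, the iron-binding subunit of the ligase that degrades it, both fell by 0.64 on the log2 scale. Aco1, which encodes iron regulatory protein 1, was at 251 ± 4.6 CPM in SHP-KO and 249 ± 9.2 CPM in WT and did not pass (adjusted p 0.79, edgeR). Pcbp2 and Pcbp1, chaperones that pass iron within the cell, went apart at log2 -0.76 and 0.29. Bach1, the repressor of antioxidant and haem-responsive genes including ferritin, was lower (log2 -0.45). Nfe2l2, the activator NRF2 that acts on the same class of elements, and Keap1, which holds NRF2 in check, were higher (log2 0.44 and 0.19). With the CV of 0.2 in edgeR's exact test Bach1, Nfe2l2, Keap1 and Pcbp1 did not pass (adjusted p 0.14, 0.15, 0.60 and 0.37).

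Epas1, the HIF-2alpha gene, was lower in SHP-KO. It spans 87153204 to 87232750 on chromosome 17 (mm9, plus strand) with 16 exons. SHP-KO replicates 1 to 3 were at 28.8, 26.9 and 28.1 CPM and WT replicates 1 to 3 at 48.6, 49.1 and 49.9 CPM. The gap between genotypes was many times the spread within each, and the difference was log2 -0.82 (SE 0.069, adjusted p 1.1e-18, edgeR), or 1.76-fold higher in WT. Epas1 still passed edgeR's exact test with a CV of 0.2 (adjusted p 0.0041). Endothelial cells express much Epas1, and of 5 tested endothelial markers Cdh5, Esam and Eng were higher, Tie1 lower, and Pecam1 was at 4.31 ± 0.096 CPM in SHP-KO and 3.98 ± 0.55 CPM in WT (SD, n = 3 each). The summed level of all 10 listed endothelial markers was 17.3 to 19.0 CPM in SHP-KO and 11.6 to 13.3 CPM in WT, 5 of them too scarce to be tested. Smooth muscle markers were higher in 10 of 10, at 1373 to 1408 CPM in SHP-KO and 374 to 376 CPM in WT, and the part of endothelial and smooth muscle cells in the Epas1 result was not tested.

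The partners and controllers of HIF-2alpha went different ways. Arnt, with which it pairs on DNA, was at 42.7 ± 1.2 CPM in SHP-KO and 42.7 ± 0.31 CPM in WT and did not pass (log2 0.00, SE 0.065, adjusted p 0.99, edgeR). Hif1a, the sister subunit, was slightly lower (log2 -0.18, SE 0.073, adjusted p 0.026, edgeR), a direction that turned to log2 0.040 with epithelial scaling (adjusted p 0.64). The Hif1a call was also lost without SHP-KO replicate 3, WT replicate 1 or WT replicate 3 (adjusted p 0.12, 0.20 and 0.076, edgeR) and in DESeq2 (adjusted p 0.11). In all, 12 tested genes of HIF subunits and oxygen sensing gave 4 higher, 4 lower and 4 that did not pass. The share called was 66.7%, beside 70.6% of all tested genes. Their median of log2 -0.04 turned to 0.18 with epithelial scaling (6 higher, 1 lower). That scaling moved the median of all tested genes from log2 -0.01 to 0.21, with 5959 of 12106 higher and 2759 lower. The prolyl hydroxylases that mark HIF for destruction split, Egln3 being higher (log2 0.82) and Egln1 lower (log2 -0.58). Arnt2, a neural relative of Arnt, was higher (log2 0.79).

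Genes known to respond to hypoxia moved both ways. Of 16 tested 8 were lower, 4 higher and 4 did not pass, around a median of log2 -0.19. The share called was 75%, beside 70.6% of all tested genes. With a CV of 0.2 in edgeR's exact test 1 was higher and 3 lower, beside 2164 higher and 1877 lower of all 12106 tested genes. Neither Ldha nor Vegfa passed there. With epithelial scaling 7 were higher and 4 lower, around a median of log2 0.03. All tested genes had a median of log2 0.21 with that scaling, 5959 being higher and 2759 lower. Ndrg1, a stress-induced differentiation gene, was at 67.1 ± 2.8 CPM in SHP-KO and 194 ± 1.1 CPM in WT (log2 -1.54). Kdm3a, a histone demethylase, was higher (log2 0.84), and Ldha, which makes lactate, was higher by a smaller step (log2 0.30). Vegfa was among the genes that rose, at log2 0.45, while Car9 and Pdk1 fell by 0.71 and 0.77 on the log2 scale.

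Ratios taken within a library compare steps of the pathway without any scaling between libraries. The 6 ratios used counts per base of transcript, and 3 against 3 libraries cannot reach p under 0.10, or 0.12 once adjusted over the 6 ratios. The uptake to export ratio Slc11a2/Slc40a1 was 36.4, 34.1 and 33.7 in SHP-KO replicates 1 to 3 and 2.74, 3.13 and 2.76 in WT replicates 1 to 3, which is 12.1-fold higher in SHP-KO. Slc40a1 held only 25 counts over the SHP-KO libraries, which limits this ratio and Heph/Slc40a1. Heph/Slc40a1 was 201 ± 18.9 in SHP-KO and 24.2 ± 1.1 in WT (SD, n = 3 each), so Heph transcripts outnumbered those of Slc40a1 by a much wider margin in SHP-KO. Cybrd1/Slc11a2 stayed far under 1 in both genotypes, at 0.028 ± 0.00027 in SHP-KO and 0.010 ± 0.0023 in WT. Cybrd1 held only 37 counts over the SHP-KO libraries and 19 over the WT libraries. The small SD in SHP-KO therefore does not show that this ratio is exact. Epas1/Hif1a was 0.74 ± 0.039 in SHP-KO and 1.17 ± 0.14 in WT, so HIF-2alpha transcripts were the less abundant of the pair in every SHP-KO library and the more abundant in every WT library. These ratios and Fth1/Ftl1 did not overlap between the groups (exact two-sided permutation test p = 0.10, adjusted 0.12, for each). Tfrc/Fth1 did overlap, at 0.0036 to 0.0040 in SHP-KO and 0.0039 to 0.0046 in WT (exact p = 0.20, adjusted 0.20).

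**Figure D4:**
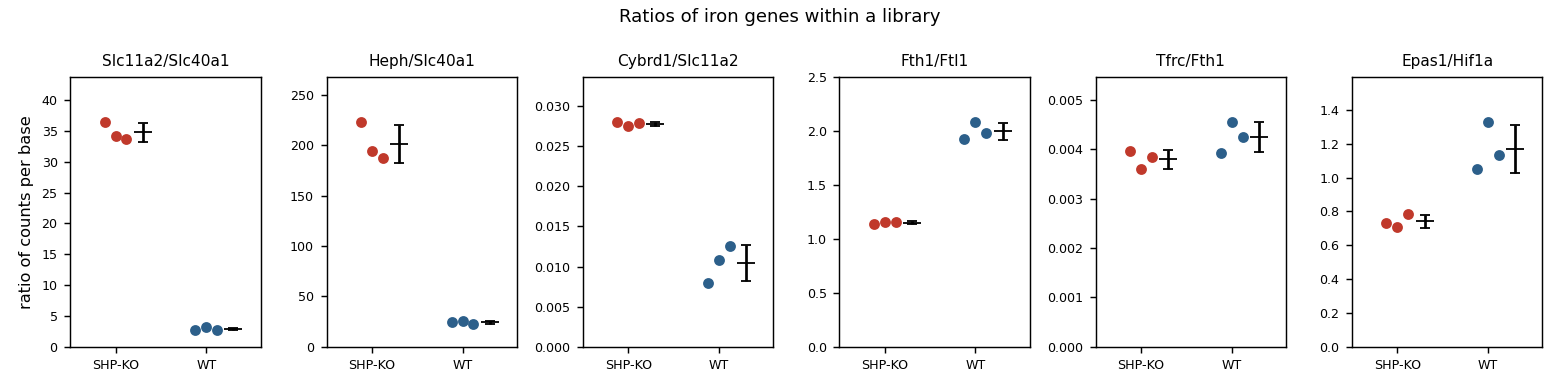
Ratio of counts per base of 2 genes within each SHP-KO and WT library (vertical axes, linear from 0), 1 point per library, with mean and SD beside them. The Slc11a2/Slc40a1 points lie above 33 in SHP-KO and below 4 in WT, and only the Tfrc/Fth1 groups overlap.

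Ordered by TPM, storage genes stood far above transport genes. Fth1 and Ftl1 led in both genotypes, holding ranks 33 and 39 among all genes in SHP-KO and ranks 25 and 66 in WT. Heph followed at 98.1 ± 2.1 TPM in SHP-KO and 133 ± 2.0 TPM in WT (SD, n = 3 each). In SHP-KO the next were Slc11a2 at 17.0 ± 0.53 TPM, Tfrc at 9.59 ± 0.26 TPM and Epas1 at 8.91 ± 0.30 TPM. Slc40a1 at 0.49 ± 0.035 TPM and Cybrd1 at 0.47 ± 0.014 TPM closed the SHP-KO order, and their libraries overlapped. In WT the next were Epas1 at 16.0 ± 0.20 TPM and Slc11a2 at 15.9 ± 0.55 TPM, whose libraries overlapped, and then Tfrc at 13.4 ± 1.3 TPM, Slc40a1 at 5.53 ± 0.31 TPM and Cybrd1 at 0.17 ± 0.041 TPM. Ferroportin transcripts thus stood well above those of Cybrd1 in WT and beside them in SHP-KO.

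Other transporters and reductases of metals gave 1 higher, 3 lower and 3 that did not pass of 7 tested, with 13 listed. The share called was 57.1%, beside 70.6% of all tested genes. Slc39a14, a zinc and iron importer known as ZIP14, was at 145 ± 0.76 CPM in SHP-KO and 110.2 ± 2.7 CPM in WT (log2 0.40), a call lost with the CV of 0.2 (adjusted p 0.20, edgeR exact test). Its relative Slc39a8 (ZIP8) was lower at log2 -1.67, on 28 counts over SHP-KO libraries and 134 over WT libraries. Steap3, the endosomal ferrireductase that works after transferrin uptake, was lower at log2 -2.36, on 16 counts in SHP-KO and 124 in WT. Slc31a1, the copper importer, was at 322 ± 7.2 CPM in SHP-KO and 319 ± 5.5 CPM in WT and did not pass.

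Of 9 genes of the hepcidin and transferrin axis in the files, 5 had too few counts to be tested. Hamp, which encodes the liver hormone hepcidin that removes ferroportin from membranes, had 4 counts over SHP-KO libraries and 35 over WT libraries and did not pass the filter. Of 4 tested genes Id1 and Smad7, targets of the bone morphogenetic protein signal that also drives hepcidin in liver, were lower (log2 -0.85 and -0.29). These make 50% of the tested genes lower, beside 35.4% of all tested genes. Smad7 did not pass with epithelial scaling (log2 -0.07) or with a CV of 0.2 (adjusted p 0.38, edgeR exact test). Trf, transferrin, was at 4.23 ± 0.81 CPM in SHP-KO and 5.23 ± 0.60 CPM in WT, and Hfe at 1.54 ± 0.54 CPM in SHP-KO and 1.81 ± 0.23 CPM in WT, and neither passed.

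Of 14 tested haem genes 5 were higher, 2 lower and 7 did not pass, around a median of log2 0.11. The share higher was 35.7%, beside 35.2% of all tested genes, and the share lower was 14.3%, beside 35.4%. Alad, the second enzyme of haem synthesis, was at 84.2 ± 3.1 CPM in SHP-KO and 37.4 ± 5.1 CPM in WT (log2 1.18, SE 0.062). Ppox, a late enzyme of the same pathway, was higher at log2 1.09, whereas Alas1, the rate-limiting first enzyme, was at 104 ± 1.7 CPM in SHP-KO and 102 ± 0.96 CPM in WT and did not pass. Slc46a1, a folate transporter also described as a haem carrier, was higher (log2 0.89). Hmox1, which frees iron from haem, was lower at log2 -1.09 (SE 0.43, adjusted p 0.019, edgeR) on only 14 counts in SHP-KO and 45 in WT. The Hmox1 call was lost without SHP-KO replicate 2 (adjusted p 0.083, edgeR), in DESeq2 (adjusted p 0.0999) and with epithelial scaling (adjusted p 0.062, edgeR). Epithelial scaling gave 10 haem genes higher and 0 lower, beside 5959 higher and 2759 lower of all 12106 tested genes.

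Mitochondrial iron genes gave 8 higher, 4 lower and 4 that did not pass of 16 tested, around a median of log2 0.16. That is 50% higher, beside 35.2% of all tested genes, and 25% lower, beside 35.4%. Both mitoferrins, the carriers that bring iron into mitochondria, were higher, Slc25a37 at log2 0.50 and Slc25a28 at log2 0.78. Slc25a37 was at 399 ± 6.6 CPM in SHP-KO and 282 ± 0.52 CPM in WT. Fdx1, a ferredoxin, was lower (log2 -0.91), and the iron-sulphur scaffold Iscu was at 31.8 ± 2.2 CPM in SHP-KO and 32.1 ± 2.2 CPM in WT. Over the 7 related lists together 53 of 78 tested genes were called, 25 higher and 28 lower, which is 67.9% beside 70.6% of all tested genes. With epithelial scaling the split turned to 39 higher and 16 lower, beside 5959 higher and 2759 lower of all 12106 tested genes. With a CV of 0.2 it was 9 higher and 13 lower, beside 2164 higher and 1877 lower of all tested genes. Slc25a37 was among the calls lost there (adjusted p 0.092, edgeR exact test).

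**Figure D5:**
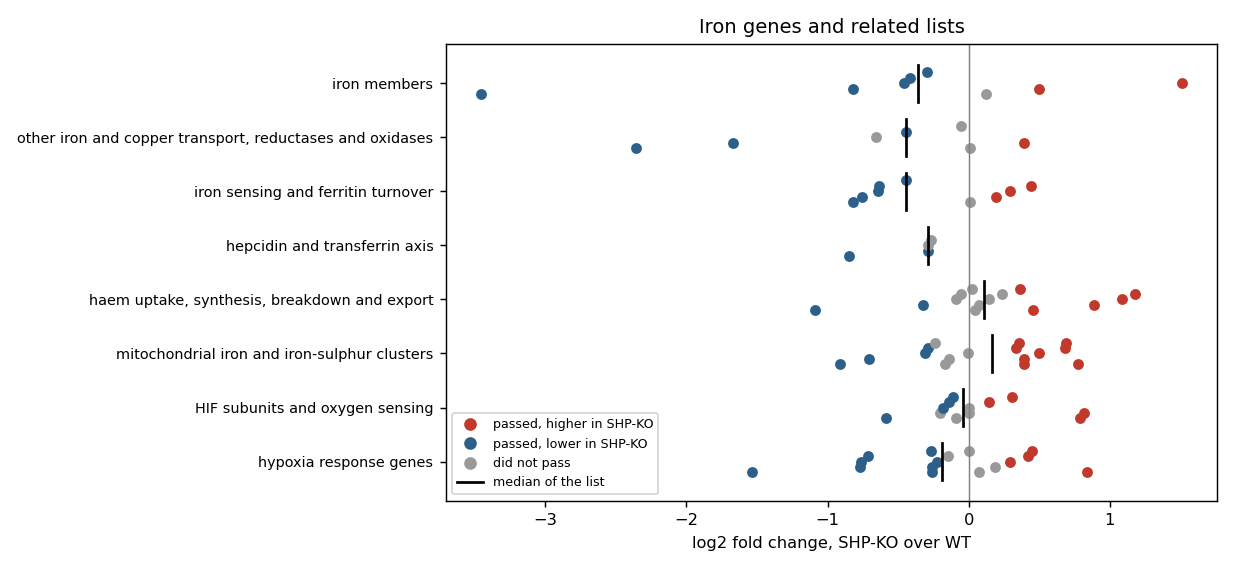
Log2 fold change, SHP-KO over WT (horizontal axis), of each tested gene in the iron set and 7 related lists, 1 point per gene (vertical offsets within a list only separate points), with the list median as a black bar. Medians lie between -0.45 and 0.16, and most lists hold genes on both sides of 0.

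The authors' deposited table gave the same signs for all 8 iron genes. In the authors' deposited table Slc40a1 stood at log2 -3.47 (adjusted p 3.0e-21), Epas1 at -0.84 (adjusted p 0.0032) and Cybrd1 at 1.49 (adjusted p 0.0066). The other 5 were not under 0.05 in the authors' deposited table, with adjusted p of 0.11 for Ftl1, 0.12 for Tfrc, 0.15 for Heph, 0.32 for Fth1 and 0.79 for Slc11a2. Among the genes with an iron-responsive element match, Slc40a1, Tfrc and Fth1 were lower and Ftl1 higher in the present fit. Binding by iron regulatory proteins and translation were not tested.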

How the data were processed

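Each of the 6 libraries was deposited by the authors as raw counts for each gene, from featureCounts 1.5.2 without regard to strand and over exons, per the file headers. Reads were 100 bp long, per the labels. The submitters' processing notes list STAR 2.6.0c, Trimmomatic 0.38 and edgeR, with mm9 as the build, without settings. The authors' deposited table holds log2 fold changes, log2 mean CPM, p-values and adjusted p-values.

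From the counts, 12106 genes passed filterByExpr (minimum count 10) and were fitted with edgeR 4.0.16 in R 4.3.3 (TMM, robust quasi-likelihood). SEs and 95% intervals come from that fit. TPM used the deposited gene lengths. No other listed gene overlapped an exon of the 8. Replicates differed beyond sampling noise, which does not show that they came from separate animals. Each was counted as a sample of its own. Depth, given in the report, limits Cybrd1, Slc40a1 and other genes of few counts. Members and lists were chosen with earlier results of these data known. Genes named are the 8, up to 3 per list by smallest p, Nr0b2, Hif1a, Arnt and the 3 most like Slc40a1, others being picked after their values were seen. Figures used matplotlib 3.10.9. Alternatives were DESeq2 1.42.0, limma 3.58.1, other scalings, filters and spreads, a replicate block and leaving out each library.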

Additional observations from a re-analysis of the deposited data

How the results depend on the processing

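Of the 8 iron genes, no log2 fold change turned its sign under any alternative run. Scaling to the geometric mean of 10 epithelial markers moved the median of all genes by 0.22 on the log2 scale. It gave 5959 genes higher and 2759 lower in SHP-KO, 39 higher and 16 lower in the related lists, and Slc11a2 passed at log2 0.34, while Fth1, Heph and Tfrc stayed called at -0.08, -0.20 and -0.24. It also turned Hif1a, Egln2 and Hif1an to log2 0.040, 0.11 and 0.077, none of them passing. With an exact test and an assumed CV of 0.2, 2164 genes were higher and 1877 lower. That setting called 1 iron gene higher (Cybrd1) and 2 lower (Slc40a1 and Epas1), with 9 higher and 13 lower in the related lists. It lost Heph (log2 -0.42), Tfrc (-0.46), Fth1 (-0.30) and Ftl1 (0.50). Limma-voom called Slc11a2 (log2 0.13). Leaving out 1 library at a time put Slc11a2 between log2 0.090 and 0.14, passing only without SHP-KO replicate 1, and the other 7 genes kept their calls. Slc40a1 ran from -3.50 to -3.41.

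Deviations from the group mean correlated at r = 0.022, 0.028 and -0.0054 between same-numbered libraries. Between libraries of different number r ran from -0.030 to 0.0098. With so few libraries these values cannot decide whether the numbers pair the samples. With the replicate number as a block, 4266 genes were higher and 4307 lower and Slc40a1 was at log2 -3.45. No ratio changed direction. The cause of these changes was not tested. Low counts limit Cybrd1, Hmox1, Steap3, Slc39a8 and, in SHP-KO, Slc40a1.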

Other observations

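By root mean square difference of centred log2(CPM + 0.5) over the 6 libraries, the genes most like Slc40a1 among 7423 of at least 10 CPM were Cables1 (0.097), C2 (0.11) and Sgk1 (0.12). Cables1 was at 11.4 ± 0.28 CPM in SHP-KO and 83.1 ± 4.2 CPM in WT (SD, n = 3 each). C2, a complement component, was at 6.14 ± 0.64 CPM in SHP-KO and 44.0 ± 2.1 CPM in WT. Sgk1, a kinase induced by serum and glucocorticoids, was at 139.9 ± 6.4 CPM in SHP-KO and 1208 ± 28.7 CPM in WT. The added 0.5 CPM narrows the difference of a gene as low as Slc40a1 in SHP-KO, so the likeness depends on it. Fitted log2 fold changes were -2.87 for Cables1, -2.84 for C2 and -3.11 for Sgk1, beside -3.45 for Slc40a1.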
